A study of Homo sapiens with 6 samples.

Results

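E2F1 binding was compared between MDA-MB-231 cells kept for 72 h in 1 µM GSK126 and the same cells kept for 72 h in the solvent DMSO, with the peaks called in each library on chromosomes 1 to 22 and X as the members. The DMSO list held 15703 peaks and the GSK126 list 14276, so that 29979 of the 290675 peaks in the 5 lists of the series were used. MDA-MB-231, a long-used line from a human triple-negative breast tumour, carried no transgene in either group, and the same antibody against E2F1 was used for both libraries. Each condition was 1 library, so no spread between replicates exists, no test between the conditions could be made, and a difference in the yield of the immunoprecipitation cannot be told apart from an effect of the drug. Nor can more cells with E2F1 at a site be told apart from more E2F1 per cell. An E2F1 list from untreated cells (1056 peaks) and the H3K27me3 lists were used only as further readouts.

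E2F1 is a transcription factor that binds DNA with a DP partner and switches on genes for DNA replication, nucleotide supply and cell division when the retinoblastoma protein lets go of it. EZH2 is the methyltransferase of Polycomb repressive complex 2, which trimethylates lysine 27 of histone H3, and GSK126 occupies its cofactor site and blocks the methylation without removing the protein. The study asked about a role of EZH2 with E2F1 outside that complex, and the drug separates the enzyme's activity from its presence.

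The sequences under the summits showed the kinds of site that the comparison turned on. They are given on the plus strand of hg38 in lower case, over 61 bp, or 30 bp where the window met an exon. Capitals mark an E2F motif (the form TTCCCGC, its variant TTCGCGC or the forms TTGCCGC and also TTGGCGC, on either strand) or an AP-1 motif (TGACTCA or TGAGTCA), on which the window was then centred. The first pair were bound in both lists, at the promoters of the mitotic cyclin gene CCNB1 (chr5:69166991-69167051) and of E2F1 itself (chr20:33686387-33686416). The next 4 were promoters with a peak only in GSK126, where SINHCAF (chr12:31326324-31326384) and TMEM106C (chr12:47963574-47963603) held an E2F motif while RAB1B (chr11:66268426-66268486) and CDC25C (chr5:138331860-138331889) did not. The 3 distal sites only in GSK126 lay nearest to KRT80 (chr12:52147469-52147529), SHC1 (chr1:154972743-154972803) and BDH1 (chr3:197510212-197510241). The last pair were distal sites only in DMSO, nearest to DPP6 (chr7:153465956-153466016) and PROS1 (chr3:93470539-93470599), and neither held either motif.
CCNB1: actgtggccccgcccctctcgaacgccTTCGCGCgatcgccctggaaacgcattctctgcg
E2F1: gccacttttacGCGCCAAatcctttttgcc
SINHCAF: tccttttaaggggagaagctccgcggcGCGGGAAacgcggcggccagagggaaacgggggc
TMEM106C: gggcttggtatTTGGCGCctgcgcgctgag
RAB1B: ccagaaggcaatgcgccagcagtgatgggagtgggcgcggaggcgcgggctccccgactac
CDC25C: cccgctcgcctctaagctgcgtcagccaat
KRT80: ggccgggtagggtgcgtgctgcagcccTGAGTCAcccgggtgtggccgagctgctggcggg
SHC1: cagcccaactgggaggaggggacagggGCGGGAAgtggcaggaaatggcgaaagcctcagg
BDH1: cggtttccgaaGCGCGAAtcccgaacgccg
DPP6: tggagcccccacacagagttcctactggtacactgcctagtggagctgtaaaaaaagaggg
PROS1: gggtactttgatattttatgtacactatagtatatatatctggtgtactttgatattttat

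The promoters of protein-coding genes differed between the lists almost in 1 direction. A gene was given a promoter peak when a summit lay within 1000 bp of any of its transcription start sites (TSSs) in GENCODE 44. Of 19970 protein-coding genes, 6539 (32.7%) had such a peak in both lists and 3740 (18.7%) only in GSK126, while 159 (0.796%) had one only in DMSO. The genes only in GSK126 were bound weakly: their median summit held 15.3 scaled fragments, beside 28.8 in GSK126 and 17.0 in DMSO at genes bound in both. Scaled fragments are the whole number of fragments stacked at a summit, solved from the fold and the p-value of the peak, divided by the lowest background of its list, which was 1.82 fragments in DMSO and 1.70 in GSK126. At 3719 of the 3740 genes no DMSO peak overlapped the GSK126 peak at all. The 3740 genes stood for 3269 distinct peaks, since neighbouring genes can share one.

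Promoter type went with how often a gene was bound, and the order of the types turned among bound genes. Types were taken from the reference sequence within 500 bp of the canonical TSS. High-CpG promoters (GC of at least 55% and a CpG observed/expected ratio of at least 0.75) had a peak only in GSK126 at 2064 of 8412 genes (24.5%, 95% Clopper-Pearson interval 23.6 to 25.5, which here and below covers counting only). Low-CpG promoters (observed/expected under 0.48) had one at 240 of 5501 genes (4.36%, 3.84 to 4.94), counted at any TSS, and at 1.58% counted at the canonical TSS alone. Among genes bound in at least 1 list, however, the share only in GSK126 was 31.6% at high-CpG, 42.7% at intermediate and 45.0% at low-CpG promoters. Bidirectional promoters, where a second protein-coding gene starts on the other strand within 1000 bp upstream, were bound most widely: of 1066 high-CpG bidirectional genes, 722 had a peak in both lists, 253 only in GSK126, 4 only in DMSO and 87 in neither.

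Genes for long noncoding RNAs (lncRNAs) split by type in the same order. At 2133 lncRNA genes with a high-CpG promoter, 992 were bound in both lists, 472 only in GSK126 and 22 only in DMSO. At 13441 with a low-CpG promoter the numbers were 143, 194 and 111. Peaks only in DMSO thus came nearer in number to those only in GSK126 at low-CpG lncRNA promoters than at either other lncRNA type. As a share, however, genes only in DMSO were not more frequent there. They were 0.826% of low-CpG, 1.29% of intermediate and 1.03% of high-CpG lncRNA genes, beside 0.796% of protein-coding genes. Of 4806 lncRNA genes with a protein-coding TSS within 2000 bp, 28.8% were bound in both lists, and of 13950 without one 2.72%. Processed pseudogenes, which are retrotransposed copies of genes, had 46 of 10007 promoters bound only in DMSO and 30 only in GSK126.

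The strongest promoters found only in GSK126 reached 62.4 scaled fragments. That peak, at RAB1B, a small GTPase of transport from the endoplasmic reticulum, held 106 fragments (95% Poisson interval 86.8 to 128), 134 bp upstream of the TSS on chromosome 11. At the local background there a DMSO peak would have been called from 21 fragments, so the DMSO summit held at most 20 and the scaled level in GSK126 was at least 5.67-fold higher. This bound takes the local background to be alike in both libraries, and it does not hold for an enriched stretch shorter than the shortest DMSO peak, 265 bp. It also takes the GSK126 fragments without their counting interval. The 8 strongest such peaks were 345 bp (RAB1B) to 1220 bp (PPP6R1) wide. Shared GSK126 promoter peaks had median widths of 1355.5 bp from 60 scaled fragments on and 1068 bp at 30 to 60. RAB5C, a GTPase of early endosomes, held 82 fragments 85 bp upstream of its TSS on chromosome 17, at least 7.31-fold above the DMSO level.

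The other 6 of the 8 strongest mixed signalling, chromatin and cell cycle genes. C6orf89 on chromosome 6 held 92 fragments, with a bound of 3.39-fold. PPP6R1, a regulatory subunit of protein phosphatase 6, held 87 on chromosome 19, with a bound of 5.17-fold. SINHCAF, a subunit of the SIN3-histone deacetylase complex, held 80 on chromosome 12, with a bound of 5.71-fold, and its E2F motif lay 11 bp from the summit. CDC25C, the phosphatase that activates CDK1 at the entry into mitosis, held 79 fragments 2 bp from its TSS on chromosome 5, with a bound of 3.84-fold, and it was the only gene of the 8 with a peak in the untreated list. TMEM106C held 79, with a bound of 3.38-fold. ATG7, which activates ubiquitin-like proteins in autophagy, held 77 on chromosome 3, with a bound of 6.34-fold. Only SINHCAF and TMEM106C had an E2F motif within 100 bp of the summit.

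Genes bound only in DMSO were fewer and weaker, and the strongest of them also had GSK126 signal nearby. Their median summit held 8.25 scaled fragments. At 30 of the 159 genes a GSK126 peak overlapped the DMSO peak but had its summit outside the promoter window, and this held for the 6 strongest. MUS81, an endonuclease that resolves stalled replication forks, held 46 fragments (25.3 scaled) 16 bp from its TSS in DMSO, while the overlapping GSK126 peak had its summit 2110 bp away at 95.3 scaled fragments. At WNK1, a kinase of ion transport, the DMSO summit held 18.7 scaled fragments and the GSK126 summit lay 1233 bp away at 70.6. For ETFB, an electron carrier of fatty acid oxidation, the DMSO summit held 23.1 and the distance was 1166 bp. TLCD1 (2080 bp), CASKIN2 (1016 bp) and the readthrough gene ATP6V1G2-DDX39B (44 bp) were of the same kind. SBNO1 (30 fragments) and EVI5 (28 fragments) had no overlapping GSK126 peak, with bounds of 1.87-fold and 1.54-fold.

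Where both lists held a peak, the summit in GSK126 was higher at nearly every promoter, and by nearly the same factor. Each DMSO peak was paired with the strongest GSK126 peak that overlapped it by at least 1 bp. At 6315 promoter pairs the median log2 ratio of scaled fragments, GSK126 over DMSO, was 0.77 (95% interval 0.76 to 0.78), a ratio of 1.71, and 6222 pairs (98.5%) were higher in GSK126. The ratio hardly moved with anything measured at the promoter. It was 0.76 at a GC content of 70% or more and 0.77 under 50%. It was 0.78 with an E2F motif and 0.76 without. It was 0.77 at high-CpG, 0.76 at intermediate and 0.76 at low-CpG genes, and 0.80 at bidirectional ones. At the 982 promoters with at least 30 scaled fragments in DMSO it was 0.78, and at the 1985 with 10 to 15 it was also 0.78. The highest value, 0.87, was at the 198 pairs with under 8 scaled fragments in DMSO, which had to be called in both lists to be counted.

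**Figure D1:**
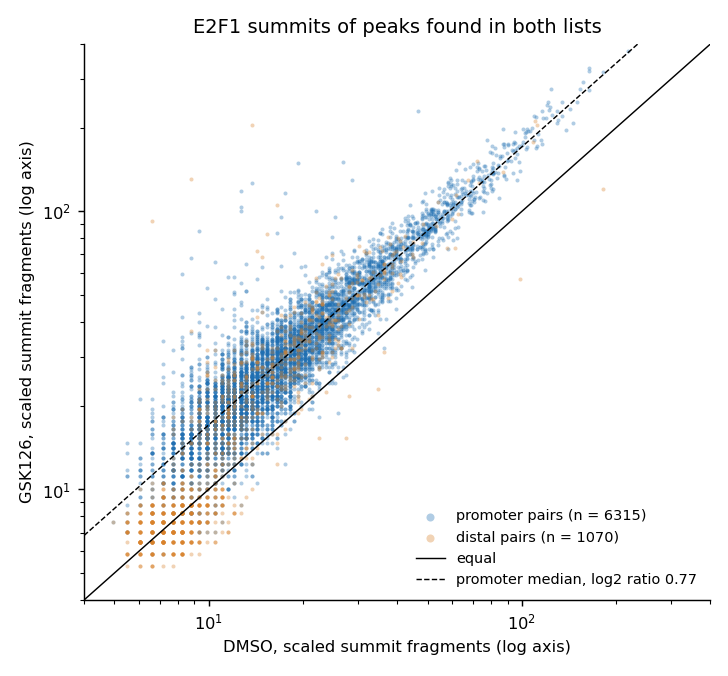
Each point is 1 DMSO peak and the GSK126 peak paired with it, with the scaled summit fragments in DMSO on the x axis and in GSK126 on the y axis, both on log axes, for 6315 promoter and 1070 distal pairs. Promoter points lie along the dashed line at the promoter median (log2 ratio 0.77), while weak distal points lie around the solid line of equal values.

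Among promoter pairs called in both lists, the scatter around that factor was about as wide as counting alone gives. Promoters with a peak in only 1 list are not covered by this. Of 4407 promoter peaks only in GSK126, 66.5% had a lower bound on the ratio, explained below, that was over the common one. The SD of the log2 ratio over the promoter pairs was 0.35, and the median counting SD of a pair, from its 2 fragment numbers, was 0.34. At 1197 pairs with at least 50 fragments in DMSO, taking 1 DMSO peak per GSK126 peak, the SD was 0.21 and the counting SD 0.22, with the middle 90% of ratios between 0.40 and 1.12. An exact interval from the 2 fragment numbers was put on each pair. Of 6115 promoter pairs with 1 DMSO peak per GSK126 peak, the interval lay above the common median at 105 (1.72%) and below it at 86 (1.41%), where 95% intervals around 1 common ratio would miss it in at most 5%. No promoter pair had an interval wholly under 0.

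The promoters with the highest ratios were those in which 1 GSK126 peak spanned more than 1 DMSO peak. The 6 with the highest lower bounds were TFDP1, SPAG5, FOXN2, PSMC3, ING2 and PPAT, with log2 ratios of 2.95 to 3.22 and summits 565 to 1463 bp apart. The GSK126 peak spanned 2 DMSO peaks in each of the 6, and against the stronger of them the ratio was 0.68 to 1.12. At TFDP1, which encodes the DP partner of E2F1, the GSK126 summit held 126 scaled fragments, the weaker DMSO summit 13.7 and the stronger one 58.3. At SPAG5, a spindle protein, the corresponding levels were 118, 12.6 and 69.3. Such spanning was seen at 217 of 7172 shared GSK126 peaks, and 8 of 7385 shared DMSO peaks spanned more than 1 GSK126 peak.

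With the summits held within 50 bp of each other, a condition set after the values were seen, the highest ratios were more modest. CACYBP, a partner of ubiquitin ligases, went from 36 fragments in DMSO (19.8 scaled) to 107 in GSK126 (62.9 scaled), a log2 ratio of 1.67 (1.11 to 2.26). EXOC4, a subunit of the exocyst, had 43 and 117 fragments and a ratio of 1.54 (1.03 to 2.08). TMCO3 and PIDD1, which triggers the PIDDosome, had ratios of 1.65 and 1.51. Without that condition, the 6 pairs with the lowest upper bounds of their intervals were PIM1, a serine/threonine kinase (47 fragments in DMSO and 32 in GSK126, log2 ratio -0.46, interval -1.15 to 0.22), ALDH1L1 (32 and 21 fragments, -0.51, -1.38 to 0.33), ADGRE5 (66 and 55, -0.17, -0.71 to 0.37), C1orf174 (-0.31), B3GALNT1 (-0.52) and PGS1 (-0.43). Every one of these 6 intervals included 0. ALDH1L1, ADGRE5 and PGS1 kept their summits within 18 bp, so their low ratios did not come with a moved summit.

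Genes that the study names had ratios near or above the common one. RRM2, the small subunit of ribonucleotide reductase, had 211 fragments in DMSO and 391 in GSK126 (116 and 230.0 scaled, log2 ratio 0.99, interval 0.74 to 1.24). CCNB1 had 30 and 62 fragments (16.5 and 36.5 scaled, 1.14, 0.49 to 1.82), and the GSK126 summit, at the E2F motif shown above, lay 294 bp from the DMSO one. PLK1, a kinase of mitosis, had 42 and 69 (23.1 and 40.6 scaled, 0.81, 0.24 to 1.40). CDC20, the activator of the anaphase-promoting complex, had a peak only in GSK126, with 22 fragments, where the call limit allowed up to 14 in DMSO, a bound of 1.68-fold that lay under the common factor of 1.71. The E2F1 promoter had 176 and 274 fragments (96.8 and 161 scaled, 0.74, 0.46 to 1.02).

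Gene classes differed widely in how many members were bound, while their median ratios at bound members lay between 0.66 and 0.90. The 134 genes of DNA replication, deoxynucleotide synthesis, repair and mitosis had 123 members bound in both lists (91.8%), 10 only in GSK126, 0 only in DMSO and 1, ORC4, in neither. Their median summits were 45.6 scaled fragments in DMSO and 82.9 in GSK126, and the median ratio was 0.81, beside 0.77 over all 6520 genes with a pair. The members only in GSK126 were those with weak summits, such as CENPE (27.6 scaled), a kinetochore motor, NME1 (20.6), a nucleoside diphosphate kinase, ORC2 (17.1) and PMS2 (14.7), a mismatch repair protein. Over all 6520 genes, 1242 (19.0%) had at least 2 times the DMSO level and 88 (1.35%) had a lower level in GSK126. In the replication class 8 of 42 reached 2 times, with ORC6 highest (39 and 88 fragments, 1.27, 0.71 to 1.85) and MCM2, a helicase subunit, lowest (110 and 134, 0.38, 0.01 to 0.76).

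Housekeeping classes had a larger share of members bound only in GSK126 than all genes had, but they were also bound more often. Of 376 genes of cytosolic and mitochondrial ribosomal proteins, oxidative phosphorylation, the proteasome, initiation factors and tRNA synthetases, 168 were bound in both lists (44.7%), 112 only in GSK126 (29.8%, 25.2 to 34.7) and 0 only in DMSO. That share stood above the 18.7% of all genes. Among the 280 bound in at least 1 list, however, the share only in GSK126 was 40% (34.2 to 46.0). That interval holds the 35.8% of all bound genes. The proteasome had more members only in GSK126 (18 of 39) than in both (14), led by PSMD8 (28.2 scaled) and PSMD12 (22.9). Nuclear genes of oxidative phosphorylation had 27 of 84 only in GSK126 and 25 in both, led by NDUFA11 (39.4), a subunit of complex I. Cytosolic ribosomal proteins had 54 of 86 in both and 22 only in GSK126, led by RPS9 (36.5). At bound members of these 6 classes the median ratio was 0.80, with 1 of 168 lower in GSK126, PSMB10 (22 and 20 fragments, -0.04, -0.99 to 0.90).

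Splicing factors and nuclear pore proteins were bound in both lists at 48 of 61 (78.7%) and 20 of 23 genes (87.0%), beside 32.7% of all genes. The KRAB-type and other zinc finger genes on chromosome 19 were bound in both lists at 99 of 246, only in GSK126 at 64 (26.0%, beside 18.7% of all genes) and only in DMSO at 2, ZNF573 and ZNF30. Among those bound in at least 1 list the share only in GSK126 was 38.8% (31.3 to 46.7), beside 35.8% of all bound genes. Among E2F, DP, pocket protein and MuvB genes 16 of 19 (84.2%) were bound in both and RBL2 (12.4 scaled) only in GSK126. Replication-dependent histone genes, which lie in clusters and share peaks, had 20 of 69 (29.0%) in both and 11 (15.9%) only in GSK126, shares close to those of all genes, and of the latter H1-2 had a DMSO peak 5 bp away at 28.6 scaled fragments, across the edge of the promoter window.

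Genes that work mainly in other tissues were mostly bound in neither list. Of 682 genes of the HOX clusters, developmental factors, olfactory receptors, clustered protocadherins, ion channels and cytokines, 633 had no peak, 16 had one in both lists, 23 only in GSK126 and 10 only in DMSO. All 53 clustered protocadherins were without a peak. The HOX clusters had 5 of 39 genes only in GSK126, namely HOXB9 (27.1 scaled), HOXC9 and HOXC6 (18.2 each), HOXD1 (17.1) and HOXA13 (15.3), and 0 in DMSO. The 5 genes stood for 4 peaks, and their share of 12.8% (4.30 to 27.4) was not above the 18.7% of all genes. Only 0.796% of all genes had a peak only in DMSO. Olfactory receptors, which function in the nose, made up 415 of the 682 genes and 6 of the 10 only in DMSO. The 6 were 1.45% of the class (0.53 to 3.12), an interval that holds the 0.796% of all genes. They were OR10S1 (21 fragments), OR4D5 (20), OR6T1 (17), OR56A5 (13), OR5AP2 (13) and OR8D4 (11), and all 6 lie on chromosome 11. Smaller classes of signalling and immunity lay between these extremes, with 12 of 18 G1/S cyclins, CDKs and CDK inhibitors bound in both lists, 26 of 43 genes of Mediator and RNA polymerase II, 11 of 19 of apoptosis, 9 of 18 of MHC class I presentation, 8 of 19 of mesenchymal genes, 7 of 27 interferon-stimulated genes and 2 of 20 luminal markers. None of these 7 classes had a member only in DMSO, which is little to go by where only 0.796% of all genes had such a peak. Their members only in GSK126 numbered 1 for the cyclins (CKS1B, 38.2 scaled), 8 for Mediator, 5 for apoptosis, 4 for MHC class I, 2 for the mesenchymal, 3 for the interferon-stimulated and 4 for the luminal genes, where 18.7% of all genes would be the background and Mediator stood at 18.6%. Among immediate early genes, ATF3 was listed only in DMSO (26 fragments), but a GSK126 peak overlapped it with a summit 1715 bp away at 35.3 scaled fragments.

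**Figure D2:**
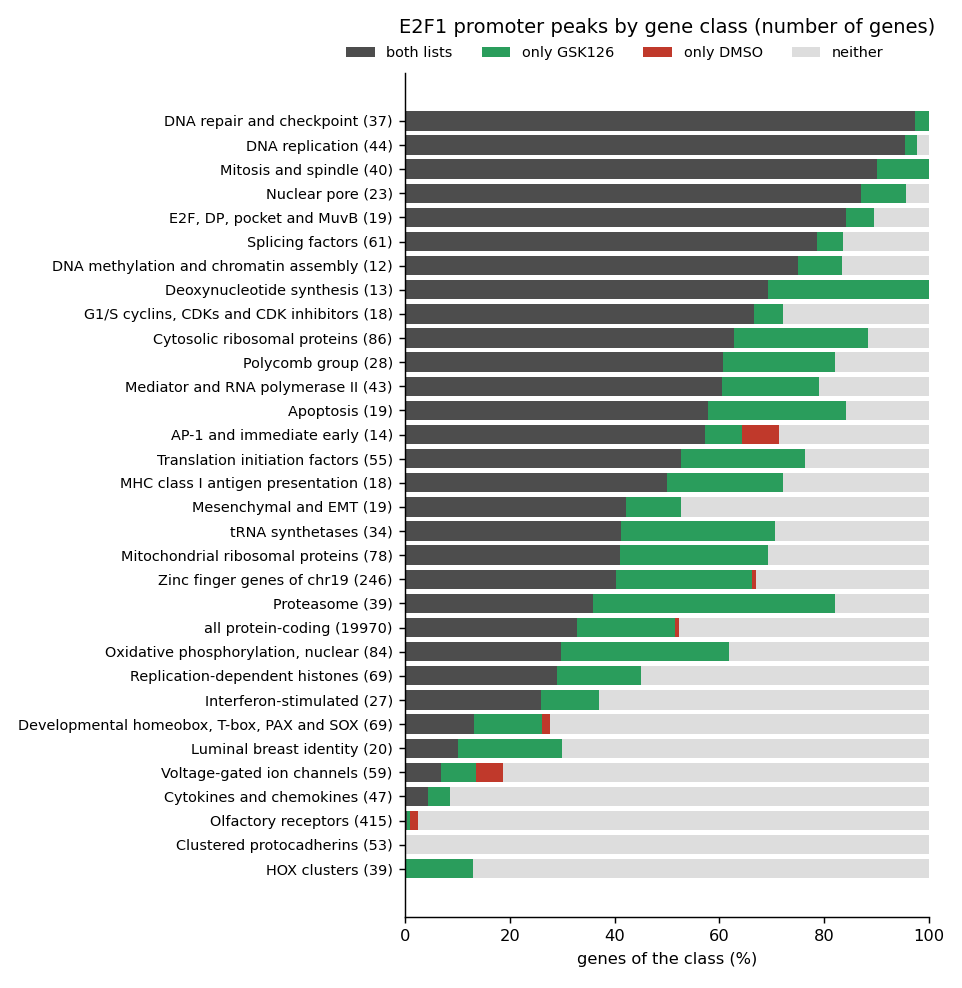
Bars give the percent of the genes of each class with an E2F1 promoter peak in both lists, only in GSK126, only in DMSO or in neither, with the number of genes in brackets. Cell cycle classes lie at the top (DNA repair, 97.3% in both), the proteasome has the widest share only in GSK126 (46.2%), and the clustered protocadherins have no peak.

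Genes of the Polycomb group, which include the target of the drug, were mostly bound. Of 28, 17 had a peak in both lists, with a median ratio of 0.71, and 6 only in GSK126 (21.4%, close to the 18.7% of all genes), led by CBX8 (27.6 scaled) and PHC3 (26.5). EZH2, named after its values were seen, had 298 fragments in DMSO and 556 in GSK126 (164 and 327 scaled, log2 ratio 1.00, 0.79 to 1.20) with the summit at the same base. Its partners SUZ12 (25 and 51 fragments, 1.13, 0.41 to 1.88) and EED (55 and 84, 0.71, 0.20 to 1.23) were also higher in GSK126, and EZH1, the paralogue of EZH2, was the highest of the class (37 and 82, 1.25, 0.67 to 1.85).

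How H3K27me3 at the promoter went with E2F1 peaks differed between promoter types. The mark was taken from the library of cells with a control shRNA, since no H3K27me3 library of drug-treated cells was used here. Among high-CpG genes, 1636 of 6639 without an H3K27me3 peak within 1000 bp of the TSS had an E2F1 peak only in GSK126 (24.6%, 23.6 to 25.7), beside 428 of 1773 with one (24.1%, 22.2 to 26.2). With an H3K27me3 fold enrichment of at least 3.73 the share was 25.8% (22.4 to 29.4) of 613 genes. Since 54.7% of genes without the mark and 43.6% with it were bound in both lists, the share only in GSK126 among bound genes was 30.7% (29.5 to 32.0) without the mark and 35.1% (32.4 to 37.9) with it. Of all intermediate genes, 24.6% (23.4 to 25.8) without the mark and 20.0% (17.7 to 22.4) with it had a peak only in GSK126. The fold of at least 3.73 went there with 25.6% only in GSK126 and with 38.5% in both lists, beside 33.1% in both without the mark. Of all low-CpG genes, 5.17% without the mark and 1.95% with it had a peak only in GSK126, and among bound low-CpG genes the shares were 45.5% and 41.5%. The median ratio at genes bound in both lists was 0.78 without the mark and 0.74 with it at high-CpG promoters.

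Summits of shared peaks stood at much the same distance from the TSS in both lists. At shared promoter peaks within 1000 bp of a protein-coding TSS the median distance to the nearest protein-coding TSS was 86 bp in DMSO and 80 bp in GSK126, and at promoter peaks only in GSK126 it was 91 bp. About the same part lay within 100 bp of the TSS: 53.4%, 55.2% and 52.4%. Promoter peaks only in DMSO were placed otherwise, with 27.6% of 174 within 100 bp and a median of 279 bp. Between paired summits the median gap was 34 bp, and 4347 of 7385 pairs (58.9%) lay within 50 bp. The gap was smaller where DMSO binding was strong: 91.8% of promoter pairs with at least 30 scaled fragments were within 50 bp, against 31.2% under 10. There was little common direction, as 2753 of 5801 promoter summits lay further downstream in GSK126 and 2947 further upstream.

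Summit gaps were smaller where an E2F motif lay within 100 bp. Promoter pairs with a motif had a median gap of 21 bp and those without one 41 bp. Of all 7385 pairs, 4328 had no motif near either summit. At the 2228 with a motif within 100 bp of both summits, which bounds the distance, the median from summit to motif was 16 bp in DMSO and 15 bp in GSK126. GSK126 peaks were wider at 94.6% of shared promoter pairs, with medians of 1002 bp and 575 bp.

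The chance of finding a peak again in the other list depended on its strength and on which list it came from. Of DMSO promoter peaks with at least 15 scaled fragments, 3528 of 3530 were in the GSK126 list. Of GSK126 promoter peaks with 15 to 20, 836 of 1960 (42.7%) were in the DMSO list, and at 30 to 40 it was 1089 of 1210. Distal DMSO peaks had a sharp step, with 4.92% found again under 8 scaled fragments, 31.1% at 10 to 15 and 99.2% at 15 to 20. Distal GSK126 peaks were found again less often than promoter ones at 20 to 30 (46.5% against 71.6%) and more often under 8 (273 of 1439 against 21 of 185) and at 8 to 10 (168 of 683 against 55 of 439), and from 60 on 48 of 48 and 772 of 773 were found. For each peak without a partner, the most fragments that would have gone uncalled in the other list gave a lower bound on the ratio. At promoter peaks only in GSK126 this bound was over the common promoter log2 ratio of 0.77 at 2929 of 4407 (66.5%) and over 1 at 1990. At distal peaks only in DMSO it was over 0.77 in favour of DMSO at 567 of 7924 (7.16%) and over 1 at 80.

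**Figure D3:**
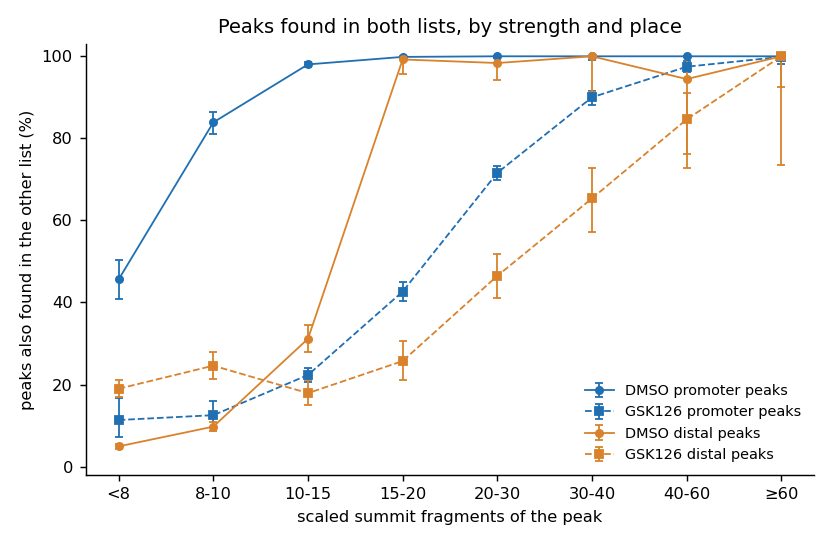
The percent of peaks found in the other list (y axis) is plotted against the scaled summit fragments of the peak (x axis, 8 ranges), with 95% Clopper-Pearson intervals as bars, for promoter and distal peaks of each list. DMSO promoter peaks pass 98% from 10 scaled fragments on, whereas GSK126 promoter peaks reach 97.5% at 40 to 60.

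E2F motifs were more frequent at the stronger of the promoter peaks only in GSK126. An E2F motif lay within 100 bp of the summit at 960 of 4407 such peaks (21.8%), beside 37.6% of shared GSK126 promoter peaks, 12.3% of windows of that length at all 19970 protein-coding TSSs, and 2.10% of windows 2000 bp to either side of the same summits. By strength the share went from 13.0% under 10 scaled fragments to 35.9% at 30 to 60. At shared GSK126 promoter peaks it also rose, from 11.8% to 44.2% over the same ranges. At like strength the groups lay closer: 21.4% only in GSK126 and 24.4% shared at 10 to 20, and 26.9% and 29.4% at 20 to 30. The GC box GGGCGG of SP and KLF factors was at 64.0% of promoter peaks only in GSK126, 70.3% of shared ones and 53.7% of all promoters, and the ETS motif CCGGAAG at 10.4%, 10.7% and 11.2%. These motifs were searched on both strands, and GC-rich windows hold them more often whether or not a factor binds there.

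Shared distal peaks, with summits more than 1000 bp from every TSS, were not alike. Their median log2 ratio was 0.36 (0.32 to 0.40) over 1070 pairs, and it differed with sequence and strength. With an E2F motif (286 pairs) it was 0.74, close to the promoter value, and without one 0.18. Among pairs with at least 10 scaled fragments in DMSO, however, it was 0.74 with a motif and 0.65 without. By GC content it was 0.02 under 50%, 0.20 at 50 to 60%, 0.68 at 60 to 70% and 0.73 from 70% on. With at least 10 scaled fragments in DMSO it was 0.69, and at 8 to 10 it was -0.00. The 56 distal pairs that also had a peak in untreated cells were all higher in GSK126, with a median of 0.79.

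**Figure D4:**
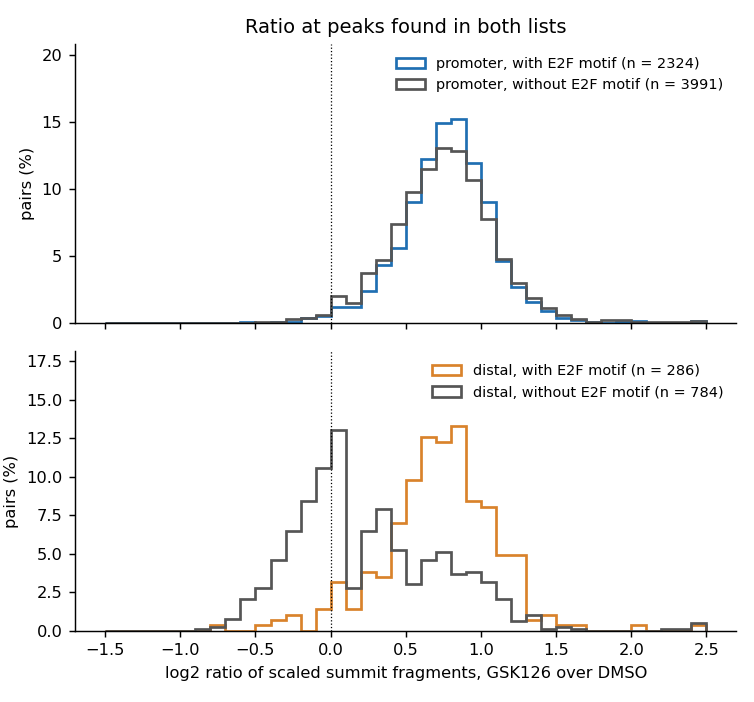
Histograms of the log2 ratio of scaled summit fragments (x axis, GSK126 over DMSO, values beyond the axis placed in the end bins) give the percent of pairs (y axis) for promoter pairs in the upper panel and distal pairs in the lower one. Pairs with an E2F motif centre near 0.78 at promoters and 0.74 at distal sites, and distal pairs without a motif have a median of 0.18 with the highest bin just above 0.

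AP-1 motifs, the sites of FOS and JUN proteins at many enhancers, were counted at strong distal peaks. Of 259 distal peaks only in GSK126 with at least 20 scaled fragments, 61 held an AP-1 motif within 100 bp of the summit (23.6%, 18.5 to 29.2). Shared distal peaks of that strength in the GSK126 list held one at 56 of 401 (14.0%, 10.7 to 17.7). The share was 3.28% in windows 2000 bp to either side of all distal summits only in GSK126, and 2.12% at all promoters. An E2F motif was at 93 of the 259 (35.9%, 30.1 to 42.1) and at 217 of the 401 (54.1%, 49.1 to 59.1), and of the 259, 20 held both and 125 (48.3%) neither. The strongest was 38222 bp downstream of the TSS of the keratin gene KRT80 on chromosome 12, with 100 fragments and a bound of 5.94-fold. It had the AP-1 motif shown above. BDH1 (81 fragments, 4.81-fold) and SHC1 (80 fragments, 5.03-fold), an adaptor of receptor tyrosine kinases, had the E2F motif.

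Distal peaks only in DMSO, the largest distal group with 7924 members, had little of the sequence seen at other E2F1 sites. An E2F motif was at 127 (1.60%, 1.34 to 1.90) and the GC box at 3.27%, beside 26.7% and 31.6% at shared distal peaks of the same list. Their median GC content was 48.3%, their median summit 13 fragments (7.15 scaled), and 93.1% had under 10 scaled fragments. None overlapped a peak of the untreated list (0 of 7924, exact 95% upper bound 0.0465%). This was not particular to them, since other weak distal peaks had no such overlap either. Under 10 scaled fragments it was 0 of 505 shared distal peaks of the DMSO list and 0 of 1681 only in GSK126. Distal peaks only in GSK126 under 10 scaled fragments had an E2F motif at 2.56% of 1681, the GC box at 6.19% (5.08 to 7.45) and a GC content of 48.8%, where those only in DMSO under 10 had the E2F motif at 1.59% and the GC box at 3.09% (2.71 to 3.51). Exact copies of the 31 bp at the summit occurred 10 times or more in the genome at 5.65% of distal peaks only in DMSO and 5.75% of those only in GSK126. Shared distal peaks of the DMSO list were not far off, at 4.11%, or 5.54% under 10 scaled fragments, while shared promoter peaks had 0.269%.

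The strongest distal peaks only in DMSO did not resemble each other. A peak on chromosome 16, nearest to ENSG00000284209 at 207085 bp, held 94 fragments over a background of 20.4, and one 415844 bp from PROS1, which encodes protein S, held 49 over 11.1, in sequence of 36.3% and 21.4% GC. These backgrounds stood well above the list's lowest value of 1.82. The peak 44545 bp upstream of C19orf12 held 49 fragments, with 71.6% GC and an E2F motif, and had a bound of 2.54-fold in favour of DMSO. The fourth, nearest to DPP6, held 29 fragments.

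The weak distal peaks lay unevenly along the genome. Peaks only in DMSO numbered 7.01 per Mb on chromosome 20 and 6.58 on chromosome 11, against 0.18 on chromosome 13 and 0.08 on chromosome 22. Those only in GSK126 followed a like order, with 1.86 on chromosomes 20 and 11 and 0.20 on chromosome 13 (Spearman's rho 0.79 over the 23 chromosomes, a description, since copy number and mappability are common to both libraries). H3K27me3 peaks of the control shRNA library, from other cells of the line, had a rho of 0.45 with the DMSO peaks and the share of genes bound in both lists one of 0.24. In bins of 5 Mb, the 57 bins (of 570) with the most distal peaks only in DMSO held 53.3% of them, 35.9% of distal peaks only in GSK126, 36.2% of shared distal peaks and 7.62% of protein-coding TSSs. The densest was 130 to 135 Mb of chromosome 11, with 227 only in DMSO and 45 only in GSK126, then 95 to 100 Mb of chromosome 14 (151 and 33) and 150 to 155 Mb of chromosome 7 (146 and 34). The local background at shared promoter peaks was higher in those 57 bins than elsewhere, at 2.74 against 2.25 times the lowest value in DMSO and 2.71 against 2.26 in GSK126, and its part in these counts was not tested. The ratio at shared promoters was 0.76 in those bins and 0.77 elsewhere.

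**Figure D5:**
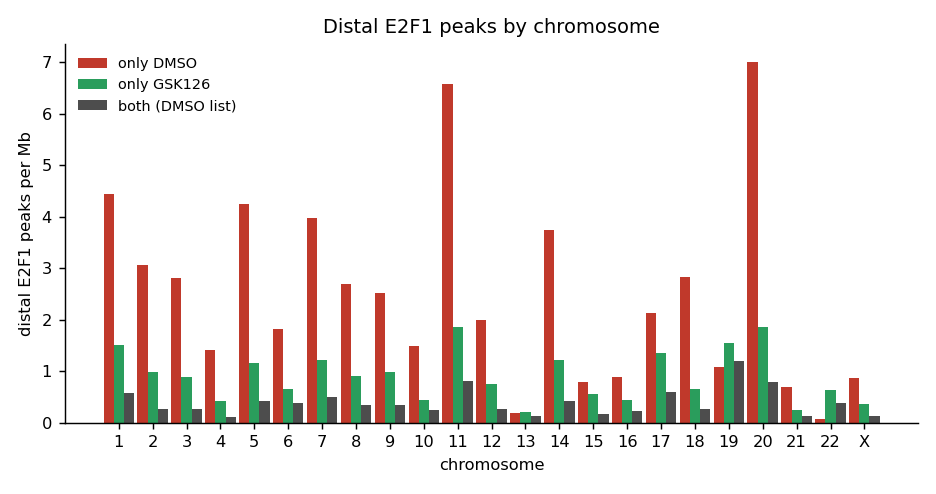
Bars give the number of distal E2F1 peaks per Mb of known sequence (y axis) on each chromosome (x axis), for peaks only in DMSO, only in GSK126 and in both lists. Chromosomes 20 (7.01 per Mb) and 11 (6.58) stand highest for peaks only in DMSO, and chromosome 22 (0.08) and 13 (0.18) lowest.

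The untreated list met the treated ones at their strongest promoters. It overlapped 14.9% of shared DMSO promoter peaks and 64.4% of shared GSK126 promoter peaks with at least 60 scaled fragments. Of promoter peaks only in GSK126 it overlapped 23 of 4407 (0.522%), and of those only in DMSO 0 of 394, exact 95% upper bound 0.932%. Of the latter, 89.3% had under 10 scaled fragments, and of promoter peaks only in GSK126 that weak the untreated list also overlapped 0 of 548. The ratio at promoters with an untreated peak was 0.81 (0.80 to 0.83), slightly above the 0.76 of those without. H3K27me3 peaks of the control shRNA library overlapped shared promoter peaks (13.4% in the GSK126 list) and promoter peaks only in GSK126 (12.0%), while those of the library with an shRNA against E2F1 overlapped 55.4% and 40.6%. The 2 libraries also differed at promoter peaks only in DMSO (15.2% and 26.9%) and at shared distal peaks of the DMSO list (8.60% and 21.2%). The share was higher in the list with the shRNA against E2F1 in every group, also at distal peaks only in DMSO (9.48% and 15.7%). Each H3K27me3 list was 1 library, and no share over all promoters is given here for comparison. These shares therefore do not show a gain of the mark particular to E2F1 sites. As a check of the line, CDKN2A and CDKN2B, which MDA-MB-231 cells lack through a known deletion, had no peak in any list.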

How the data were processed

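E2F1 chromatin immunoprecipitation sequencing of MDA-MB-231 cells was used, 1 library for DMSO and 1 for GSK126. Per the labels and the study's methods, the authors trimmed reads with cutadapt 4.5 after FastQC 0.11.5, aligned them to GRCh38 with Bowtie2 2.5.2, filtered with Picard and SAMtools and ran MACS2 2.2.9.1 on each library separately at a q-value of 0.01. Whether the input served as control is not given in the sources used here. The deposited lists give a fold enrichment, the ratio of signal to background at the summit. They also give, as deposited by the authors, −log10 p-values and q-values, a display score that was not used, and the summit position. Total read depth is not in the lists, so precision was taken from summit fragments alone.

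Fold is (fragments + 1)/(background + 1) and p is the Poisson tail, so both were solved for whole fragments and background. Every peak was solved within a relative error of 2e-05, and on simulated summits of DMSO peaks 4000 of 4000 fragment numbers were recovered. Those simulated numbers came from the same solver and formula. The recovery therefore checks the arithmetic, not the counts of the authors' own run. At shared summits within 50 bp, the local background relative to the lowest of each list had a median log2 ratio of 0.00 (middle 90% -0.20 to 0.21). If both lists were called against the same control, this agreement would be built in. It therefore says nothing about the noise of either immunoprecipitation. Median fragments at a summit were 17 in DMSO and 30 in GSK126. Genes came from GENCODE 44, sequence from hg38. Intervals are exact (Clopper-Pearson, Poisson or conditional binomial) or order statistics of a median, at 95%, and cover counting error only. Fragments share amplification, so they are not independent molecules.

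Python 3.11.15, numpy 2.4.6, pandas 2.3.3, scipy 1.17.1 and matplotlib 3.10.9 were used. Named genes, none from chromosome 8, were the 8 strongest promoters in 1 list, the 6 shared promoter peaks with the highest and the 6 with the lowest ratio by interval bound, the 4 strongest distal peaks of each list (1 is not reported here), the extreme and strongest members of each class, and genes the study names. The comparison, its 31 gene classes and these rules were chosen with earlier results of these data known. Alternatives were a −log10 q of at least 5, a promoter of 500 bp, canonical TSSs, a stricter overlap, other scalings, 10000 peaks per list, a gap of 100 bp and a longer motif. Others were added after seeing the data.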

Additional observations from a re-analysis of the deposited data

How the results depend on the processing

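Of 38 values under other settings for 8 results, none turned its direction, 20 stayed within the interval or within 1.5 times the count, and 18 moved. The genes only in GSK126 numbered 3014 to 4002 and stayed within 1.5 times. The genes only in DMSO were 70 at −log10 q of at least 5 and 240 with a promoter of 500 bp. The promoter log2 ratio was 0.73 by the authors' fold enrichment, 0.67 for unscaled fragments and 0.76 with the strongest DMSO peak of each GSK126 peak. The distal log2 ratio was the least settled: 0.70 at −log10 q of at least 5, 0.50 with a promoter of 500 bp, 0.43 with overlap of 50% of the shorter peak, 0.32 by fold enrichment, 0.26 unscaled and, chosen after seeing the data, 0.66 for summits within 50 bp and 0.69 with at least 10 scaled fragments in DMSO. The share of high-CpG genes only in GSK126 was 28.0% at the stricter q. That of low-CpG genes was 3.76% with a promoter of 500 bp and 1.58% with canonical TSSs, since alternative TSSs of low-CpG genes were then left out. Summits within 50 bp made up 66.6% at the stricter q, and within 100 bp 70.1%. The longer E2F motif (a T before any of the 4 forms) was at 4.88% of promoter peaks only in GSK126. The planned share of distal peaks in repeats was not run, because the reference used here marks no repeats. No paired analysis was possible because each condition is 1 library. Depth limits weak sites: a peak needed at least 9 fragments in either list, so a missing partner at that level says little.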
